A study of Mus musculus with 6 samples.

Results

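The genes described here encode the subunits of the mitochondrial respiratory chain, complexes I to IV, and of the ATP synthase, complex V. They were taken as every gene whose single symbol in the platform's probe annotation begins with Nduf (a, b, c, s or v and a number), Uqcr, Cox4 to Cox8, Sdh (a to d) or Atp5. The rule found 79 of the 22180 genes on the array, on 88 probe sets, and used no measured value. Complex I had 31 of these genes, complex II 4, complex III 7, and complexes IV and V 17 each. Of the others, Cox7a2l encodes a factor that joins complexes III and IV into supercomplexes, and Atp5c1-ps and Uqcrh-ps1 are pseudogenes. Ndufa4 was first assigned to complex I and is now placed in complex IV, where it was counted.

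C2C12 cells are mouse myoblasts of an established line, which proliferate with ample serum and form multinucleated myotubes after serum is reduced. RNA of 6 cultures was hybridised to Affymetrix arrays, 1 array for each of 6 groups. With 10% fetal bovine serum (growth medium), one culture was untreated, one had 24 h of TNF-α at 50 ng/ml and one had 24 h of BTZ at 10 nM. The other cultures were grown in the same 10% serum and then moved to 2% differentiation medium. Of these, one was untreated and was harvested on day 5, one received TNF-α at 50 ng/ml on day 4, and one received BTZ at 10 nM on day 4, the treated cultures also being harvested on day 5. TNF-α is a cytokine of inflammation that acts in part through NF-kB. BTZ is not spelled out in the labels; the abbreviation is commonly used for bortezomib, a proteasome inhibitor. No group was replicated, so a difference between 2 arrays carries no error, and no p-value is given for one.

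The respiratory chain passes electrons from NADH (complex I) and succinate (complex II) through ubiquinone to complex III, then through cytochrome c to complex IV, which reduces oxygen. Complexes I, III and IV pump protons across the inner membrane, and complex V uses the gradient to make ATP. Most subunits are encoded in the nucleus and a few of the catalytic core in mitochondrial DNA, so that a complex needs both sets. Complex IV has paired isoforms of some small nuclear subunits, one present in most tissues and one found mainly in heart and skeletal muscle: Cox6a1 and Cox6a2, Cox7a2 and Cox7a1, Cox8a and Cox8b.

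The deposited values were read as log2 signals, and differences are therefore in log2 units, with 1 unit being 2-fold. Probe sets of 1 gene were averaged. The median over all probe sets lay between 5.01 and 5.11 on the 6 arrays. Genes were compared where their highest array reached a floor of 5.06, the median of all values, which 13652 genes did, 73 of the 79 members among them. Below it on every array were Ndufs5 of complex I, whose highest value was 5.05, the complex IV isoforms Cox6b2, Cox7b2 and Cox8c, which are known mainly from testis, and both pseudogenes. A difference of at least 0.5 log2 units was used to count genes as higher or lower, with 2-fold as an alternative. Levels on an array depend on the probes, so no gene's level is set against another gene's.

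The labels name media and treatments, and markers of myoblasts and myotubes were read on each array. All 5 myoblast genes (Pax7, Myf5, Myod1, Cdh15 and Des) reached the floor. Their mean log2 signal was 8.62, 8.14 and 7.47 in growth medium (untreated, TNF-α and BTZ) and 9.41, 8.63 and 7.99 in differentiation medium. The list was thus highest on the untreated array of each medium, and 4 of the 5 genes were at least 0.5 higher in untreated differentiation medium than in growth medium, Cdh15 by 1.74 and Myod1 by 1.61. All 8 myotube genes (Myog, Mymk, Myh3, Ckm, Acta1, Ttn, Actn2 and Tnnc2) were higher in untreated differentiation medium than in growth medium, by a median of 4.73. Their mean log2 signal was 5.70, 5.26 and 5.39 in growth medium (untreated, TNF-α and BTZ) and 9.99, 9.55 and 7.63 in differentiation medium. With BTZ in differentiation medium all 8 were at least 0.5 lower, with a median difference of -2.09, as were 4 of the 5 myoblast genes, with a median of -1.12. That shift accompanies every BTZ difference in differentiation medium given here, and its part in them was not tested. In RNA from a whole culture, fewer cells of a type and less RNA per cell cannot be told apart. Of other cell types, all 4 endothelial and both brown fat markers and 4 of 5 immune markers were below the floor on every array; Cd68 ran from 5.63 to 7.74, and 2 of 4 adipocyte markers, Plin1 and Cidec, reached 5.35 and 5.37.

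The medium comparison turned on the muscle isoforms of complex IV. Cox6a2 read 5.41, 5.41 and 5.78 in growth medium (untreated, TNF-α and BTZ, here and in each such list below) and 7.80, 7.51 and 6.92 in differentiation medium. All 3 differentiation arrays were above all 3 growth arrays. Cox8b, the muscle form of subunit VIII, read 4.12, 4.22 and 4.65 in growth medium and 6.84, 6.20 and 4.32 in differentiation medium. Its untreated and TNF-α differentiation arrays stood apart, while the BTZ differentiation array lay among the growth arrays, all 4 of these being below the floor. Cox7a1, the muscle form of subunit VIIa, read 4.94, 4.77 and 4.85 in growth medium and 5.83, 5.41 and 5.05 in differentiation medium. The 3 differentiation arrays were again the higher ones, with the BTZ array just under the floor. Cox8b and Cox7a1 passed the floor only through the arrays where they were high. The ubiquitous partners had narrower ranges. Cox6a1 stayed between 11.91 and 12.20, Cox7a2 between 8.69 and 9.46, and Cox8a between 10.00 and 10.51.

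**Figure D1:**
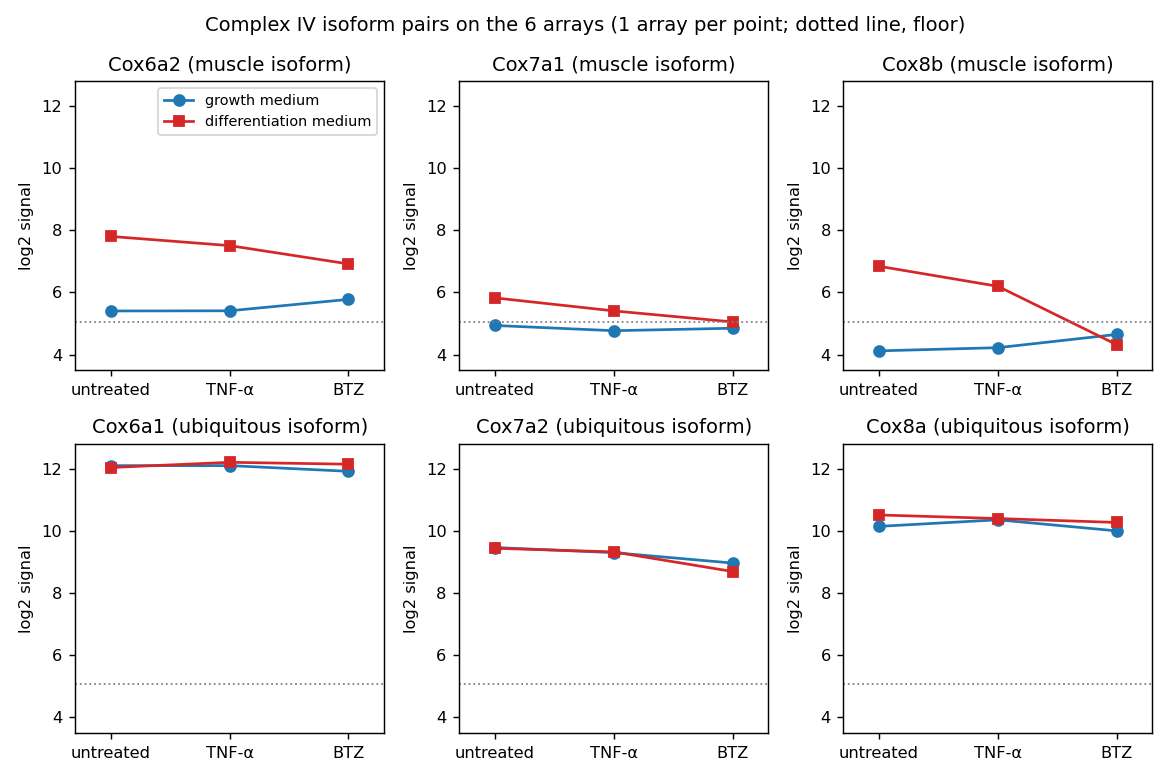
Log2 signal of the 3 muscle isoforms of complex IV (upper row) and their ubiquitous partners (lower row) on each of the 6 arrays, 1 array per point; blue circles are growth medium, red squares differentiation medium, and the dotted line is the floor of 5.06. Cox6a2 reads 5.41 and 7.80 on the untreated arrays, and Cox8b reads 4.32 with BTZ in differentiation medium against 6.84 without it.

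The upstream sequence of the isoform pairs is shown because the members of a pair differed in the comparisons above while serving the same position in the enzyme. The windows are the 250 bases before the RefSeq transcription start (GRCm38.p6), 5′ to 3′ on the gene's strand. Capitals mark matches, on either strand, to 4 motifs: CAGCTG, an E-box of the kind bound by myogenic factors such as MyoD; GCGCANGCG, the core of the NRF1 site; CCGGAAG, an ETS site of the kind bound by GABP; and the MEF2 motif. NRF1 and GABP are known regulators of nuclear genes for respiratory subunits. No window for Cox6a2 was in the table.
Cox8b (chr7:140900447-140900696, - strand): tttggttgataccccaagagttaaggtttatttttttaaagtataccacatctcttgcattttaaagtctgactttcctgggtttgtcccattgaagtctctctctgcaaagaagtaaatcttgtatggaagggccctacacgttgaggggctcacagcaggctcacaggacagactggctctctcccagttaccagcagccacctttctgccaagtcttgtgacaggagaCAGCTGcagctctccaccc
Cox8a (chr19:7217617-7217866, - strand): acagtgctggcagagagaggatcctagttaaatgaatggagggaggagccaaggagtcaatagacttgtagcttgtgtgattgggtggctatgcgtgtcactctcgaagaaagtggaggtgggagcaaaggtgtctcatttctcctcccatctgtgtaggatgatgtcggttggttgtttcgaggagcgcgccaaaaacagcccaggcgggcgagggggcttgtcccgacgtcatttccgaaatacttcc
Cox7a1 (chr7:30183921-30184170, + strand): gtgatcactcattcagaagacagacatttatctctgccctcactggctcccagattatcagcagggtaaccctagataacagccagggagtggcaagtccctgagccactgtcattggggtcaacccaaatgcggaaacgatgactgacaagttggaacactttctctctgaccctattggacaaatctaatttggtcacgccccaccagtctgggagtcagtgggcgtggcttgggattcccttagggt
Cox7a2 (chr9:79759854-79760103, - strand): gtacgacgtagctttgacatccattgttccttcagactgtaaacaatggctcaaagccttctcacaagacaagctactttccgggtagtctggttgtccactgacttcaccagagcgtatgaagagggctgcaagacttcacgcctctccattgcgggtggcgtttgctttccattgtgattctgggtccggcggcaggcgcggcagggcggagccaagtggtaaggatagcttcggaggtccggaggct
Cox6a1 (chr5:115348959-115349208, - strand): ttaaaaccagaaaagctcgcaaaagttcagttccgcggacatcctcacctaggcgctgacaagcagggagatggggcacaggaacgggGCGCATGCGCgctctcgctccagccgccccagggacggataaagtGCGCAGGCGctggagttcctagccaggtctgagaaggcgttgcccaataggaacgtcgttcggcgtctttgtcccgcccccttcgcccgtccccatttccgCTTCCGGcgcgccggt

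In this set, the E-box starting at position -19 of Cox8b was the only match among the muscle isoforms, and neither Cox8a, Cox7a1 nor Cox7a2 held any of the motifs. Cox6a1 held 3 NRF1 matches, starting at -162, -161 and -117, the first 2 being overlapping matches on opposite strands, and 1 ETS match at -16. Over the 68 windows of the 63 subunit genes in the table, 13 held the NRF1 core (19.1%, against 5.16% of all 32851 windows) and 12 the ETS site (17.6% against 6.91%). The E-box was in 6 windows (8.82% against 13.0%) and the MEF2 motif in 0 (against 2.92%). The median GC content was 56.2% in the subunit windows and 52.4% in all. These are letter matches and not measured binding sites.

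Between the untreated arrays, 6 of the 73 members were at least 0.5 higher in differentiation medium (8.22%; 14.1% of all genes) and 0 were lower (12.5% of all genes). They were Cox8b (2.72 higher), Cox6a2 (2.40), Cox7a1 (0.89), Ndufa13 (0.62), Ndufs3 (0.54) and the ATP synthase membrane subunit gene Atp5k (0.51). Ndufv1, whose product holds the NADH site, lay just outside at 0.497. Only Cox8b and Cox6a2 passed 2-fold. The lowest members were Ndufc2, Atp5mpl, Ndufb6 and Ndufa12, between -0.42 and -0.36. The median member difference was 0.071, against 0.014 over all genes.

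The muscle isoform of each pair had the larger medium difference between the untreated and between the TNF-α arrays. Cox8b and Cox7a1 were under the floor on every growth array and passed it only through arrays where they were high. Their gaps are therefore a description. Between the untreated arrays the difference of Cox6a2 exceeded that of Cox6a1 by 2.46, that of Cox8b exceeded that of Cox8a by 2.35, and that of Cox7a1 exceeded that of Cox7a2 by 0.91. Between the 2 BTZ arrays, which share nothing with the untreated ones, these gaps were 0.91, -0.60 and 0.48 in the same order. Between the TNF-α arrays they were 1.99, 1.93 and 0.61. The sign was therefore the same in all 3 pairs of arrays for Cox6a2 and Cox7a1, and opposite for Cox8b with BTZ.

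By complex, the untreated medium medians were 0.15 for complex I, 0.084 for complex II, 0.11 for complex III, 0.062 for complex IV and -0.055 for complex V. That of complex IV became -0.0042 with 1 probe set per gene, the one of highest mean signal, and that of complex V became 0.010 after quantile normalization. In complex I, 19 of 30 members were above 0 (63.3%, against 51.3% of all genes). Among the 6 nuclear core subunits above the floor 5 were above 0. Ndufv1 read 8.58, 8.70 and 8.46 in growth medium and 9.08, 8.95 and 8.40 in differentiation medium. Ndufs3, a core subunit of the peripheral arm, read 6.38, 6.41 and 6.12 and then 6.92, 6.59 and 6.16. Ndufa13, also called GRIM-19, read 8.85, 8.80 and 8.46 and then 9.48, 9.44 and 8.54. In each of these 3 genes the untreated differentiation array was the highest and the BTZ array of that medium lay near the growth arrays. Ndufa4 differed from them, at 10.64, 10.63 and 10.72 in growth medium and 10.50, 10.55 and 10.69 in differentiation medium.

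Over the 3 pairs of arrays that differ by medium, 11 members were above 0 in all 3 pairs and 11 below 0 in all 3 (15.1% each, against 22.9% and 22.2% of all genes). Cox6a2 was the only member at least 0.5 higher in all 3, and 0 were at least 0.5 lower; over all 13652 genes these counts were 350 (2.56%) and 471 (3.45%). Medium and treatment were fitted as additive terms to the 6 arrays with limma, which leaves 2 residual degrees of freedom and was the only test the design allowed. In it Cox6a2 rose with differentiation medium by 1.88 (SE 0.26, limma adjusted p = 0.0236). It was the 1 member called higher (1.56% of all genes), and 0 were called lower (2.47% of all genes). At an unadjusted limma p of at most 0.05 there were 5 higher, Cox8b and Cox7a1 among them, and 3 lower. The share of all genes at that level was not counted. Without the 2 TNF-α arrays the adjusted p of Cox6a2 was 0.114, and over the other alternatives it ran from 0.000113 to 0.0255. Cox7a1 (0.58, limma adjusted p = 0.146), Cox8b (1.45, adjusted p = 0.204) and Ndufa4 (-0.085, adjusted p = 0.70) did not pass.

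The additive model assumes the same medium effect under every treatment, and the BTZ arrays bore on it. Without those 2 arrays, limma called 5 members higher in differentiation medium (12.1% of all genes) and 1 lower (11.4% of all genes). Cox6a2 rose by 2.25 (SE 0.17, adjusted p = 0.000113), Ndufa13 by 0.63 (adjusted p = 0.0130) and Ndufv3 by 0.63 (adjusted p = 0.0463). The other members called higher, Cox8b (2.35) and Cox7a1 (0.76), were under the floor on every growth array and entered the test only through arrays where they were high, so their differences are a description. Uqcrb, a small subunit of complex III, fell by 0.35 (limma adjusted p = 0.0471). Both shares of members were below those of all genes.

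**Figure D2:**
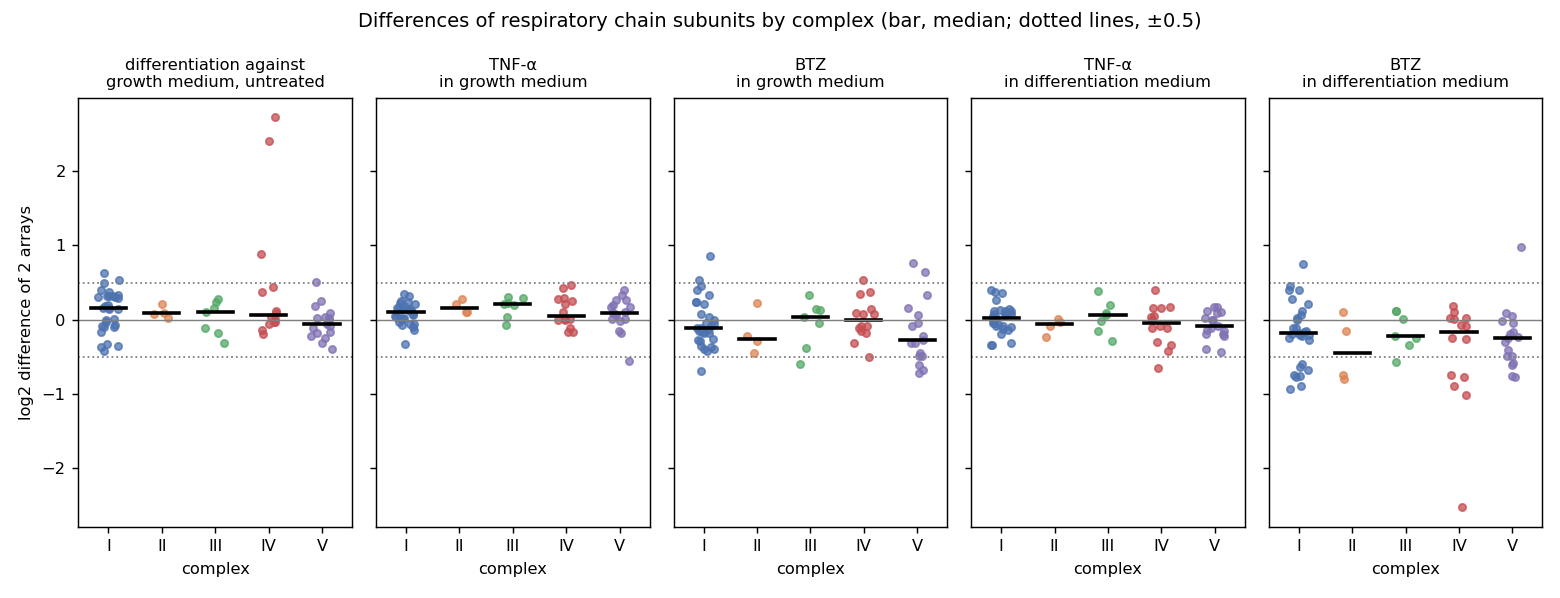
Log2 difference of 2 arrays for each subunit above the floor, 1 point per gene, by complex (horizontal axis) in the 5 comparisons; bars are medians and dotted lines mark 0.5 in each direction. The complex IV genes Cox8b and Cox6a2 stand above 2 in the medium comparison, and with BTZ in differentiation medium the median of each complex is below 0, from -0.44 in complex II to -0.16 in complex IV.

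Few of these genes differed by 0.5 with TNF-α. In growth medium 0 members were at least 0.5 higher (7.77% of all genes) and 1 was lower (6.57% of all genes), Atp5j2, the f subunit of the ATP synthase. Atp5j2 read 5.65 untreated, 5.09 with TNF-α and 5.56 with BTZ in growth medium, and 5.67, 5.28 and 5.42 in differentiation medium. The TNF-α array was the lowest of each medium. The highest members were Cox7b (0.46), Cox7c (0.43), Atp5k (0.40) and Ndufa10 (0.35), and next to Atp5j2 at the lower end were Ndufv3 (-0.32), Atp5e (-0.18) and Cox7a1 (-0.17). Cox7b differed by only 0.14 on its bright probe set and by 0.78 on its dim one, which read 4.46 untreated and 5.24 with TNF-α. Of the 73 members 56 were above 0 (76.7%, against 53.8% of all genes), with a median of 0.105 against 0.031 over all genes. The count depended on the scaling: 46 were above 0 after quantile normalization (63.0%, against 51.0% of all genes; median 0.042) and 61 with equal array medians (83.6%, against 61.4%; median 0.16). The medians were 0.100 in complex I, 0.16 in complex II, 0.21 in complex III, 0.054 in complex IV and 0.092 in complex V, each above 0 under the scalings tried, that of complex I falling to 0.025 after quantile normalization, with 17 of 30 members above 0. Of the myoblast genes 3 of 5 were at least 0.5 lower on the same array (median -0.54), and their part in these differences was not tested.

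In differentiation medium TNF-α left 0 members at least 0.5 higher (7.13% of all genes) and 1 lower (6.01% of all genes), Cox8b (-0.64). The next lowest were Atp5o (-0.44), the stalk subunit known as OSCP, Cox7a1 (-0.42) and Atp5j2 (-0.39). The highest were Ndufa1 (0.41), Cox4i2 (0.40), an isoform of subunit IV known from lung and from low oxygen, Uqcrq (0.38) and Ndufb3 (0.38). Cox4i2 passed the floor only through this TNF-α array (5.13) and read 4.73 untreated, so its difference is a description. Cox6a2 was lower (-0.30), so that all 3 muscle isoforms were below 0, while Cox6a1 was 0.17 higher and Cox7a2 and Cox8a were -0.12 and -0.11. Myotube markers were lower on the same array, 5 of 8 by at least 0.5 with a median of -0.53, and their part in these differences was not tested. The median member difference was -0.0021 against 0.0073 over all genes, and it was 0.046 once array medians were made equal. In the additive model 0 members were called for TNF-α in either direction, where limma called 11 genes higher (0.0806%) and 2 lower (0.0146%). At an unadjusted p of at most 0.05 there were 0 members higher and 1 lower, and the smallest limma adjusted p was 0.727. How many of all genes reached that unadjusted level was not counted.

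With BTZ in growth medium, 6 members were at least 0.5 higher (8.22%; 18.0% of all genes) and 5 were lower (6.85%; 16.4% of all genes). The higher ones were Cox7a2l (0.91), Ndufa10 (0.86), Atp5h (0.76), Atp5g1 (0.65), Ndufa11 (0.53) and Cox8b (0.53, between arrays below the floor). The lower ones were Atp5g3 (-0.72), Ndufv3 (-0.69), Atp5mpl (-0.68), Atp5b (-0.61) and Uqcrq (-0.59), with Cox7a2 just outside at -0.4996. The median member difference was -0.089 against 0.021 over all genes. It was -0.27 in complex V, where 12 of 17 members were below 0 (70.6%, against 48.4% of all genes). The median was -0.25 in complex II, -0.11 in complex I, -0.0062 in complex IV and 0.039 in complex III. The last became -0.0039 when array medians were made equal and -0.026 after quantile normalization. All 5 myoblast genes were at least 0.5 lower on this array than on the untreated one, Myf5 (-1.84), Cdh15 (-1.38) and Des (-1.13) the most, with a median of -1.13. Their part in the differences of the members was not tested.

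With BTZ in differentiation medium the lower side was larger. Here 20 of 73 members were at least 0.5 lower (27.4%; 20.5% of all genes) and 2 were higher (2.74%; 19.2% of all genes). Below 0 were 51 members (69.9%, against 49.7% of all genes), and the median was -0.19 against 0.0030. Cox8b and Cox7a1 are among the 20 and passed the floor only through arrays where they were high. Without the 3 muscle isoforms 17 of 70 were lower by 0.5, a share nearer to the 20.5% of all genes. The median was again -0.19. Cox8b (-2.52) and Cox7b (-1.01) were the only ones past 2-fold. They were followed by Ndufa13 (-0.94), Ndufv3 (-0.89), Cox6a2 (-0.88), Sdhd (-0.80), Cox7a1 (-0.77), Ndufa6 (-0.77), Atp5mpl, Ndufs3 and Atp5b (-0.76 each) and Cox7a2 (-0.75). The remaining 8 were Sdha, Ndufb10, Ndufv1, Ndufb7, Atp5o, Ndufa3, Atp5e and Uqcrh, from -0.74 to -0.56, and Atp5a1 lay just outside at -0.49. Both members that were higher, Atp5h (0.98) and Ndufa10 (0.75), were also higher in growth medium. Both treatment comparisons of a medium and the medium comparison share an untreated array, so a low value after BTZ and a high value before it are not separate observations of these genes.

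All 5 complexes held members that were lower by 0.5 in that comparison, where 20.5% of all genes were and 49.7% were below 0. In complex I there were 8 of 30, with a median of -0.18. All 6 core subunits were below 0, from -0.76 in Ndufs3 and -0.68 in Ndufv1 to -0.0098 in Ndufs8, and 15 of the 24 others were. Of complex II, Sdha, the flavoprotein that oxidizes succinate, read 10.07, 10.18 and 9.62 in growth medium and 10.28, 10.20 and 9.54 in differentiation medium. The BTZ array was the lowest of each medium. Sdhd, a membrane anchor, read 9.22, 9.42 and 8.92 and then 9.24, 9.25 and 8.44, with the BTZ array again lowest in both. The iron-sulfur subunit Sdhb was 0.22 and 0.11 higher with BTZ in growth and differentiation medium, and the anchor Sdhc was -0.21 and -0.15. The 4 subunits of complex II thus had differences of both signs, around medians of -0.25 and -0.44.

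In complex III 1 of 7 members was lower, Uqcrh (-0.56), the hinge protein next to cytochrome c1, and the median was -0.22. The core proteins Uqcrc1 and Uqcrc2 differed by 0.012 and 0.12, and the Rieske iron-sulfur protein Uqcrfs1 by -0.34. In complex IV 5 of 14 were lower, the 3 muscle isoforms with Cox7b and Cox7a2, and the median was -0.16. Cox4i1, Cox5a, Cox5b and Cox6b1, which most tissues use, lay between -0.079 and 0.028, with Cox5b at -0.19 on its bright probe set. Among other members of complex IV, Cox7c and Cox8a differed by -0.25 and -0.24 and Cox6a1 by 0.11. Ndufa4 was 0.18 higher, the highest member of complex IV. In complex V 14 of 17 were below 0 (82.4%, against 49.7% of all genes) and 4 were lower by 0.5, with a median of -0.25. They were Atp5b, the catalytic β subunit, Atp5e and Atp5o of the central and peripheral stalks, and Atp5mpl, a small membrane subunit also known as 6.8PL.

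**Figure D3:**
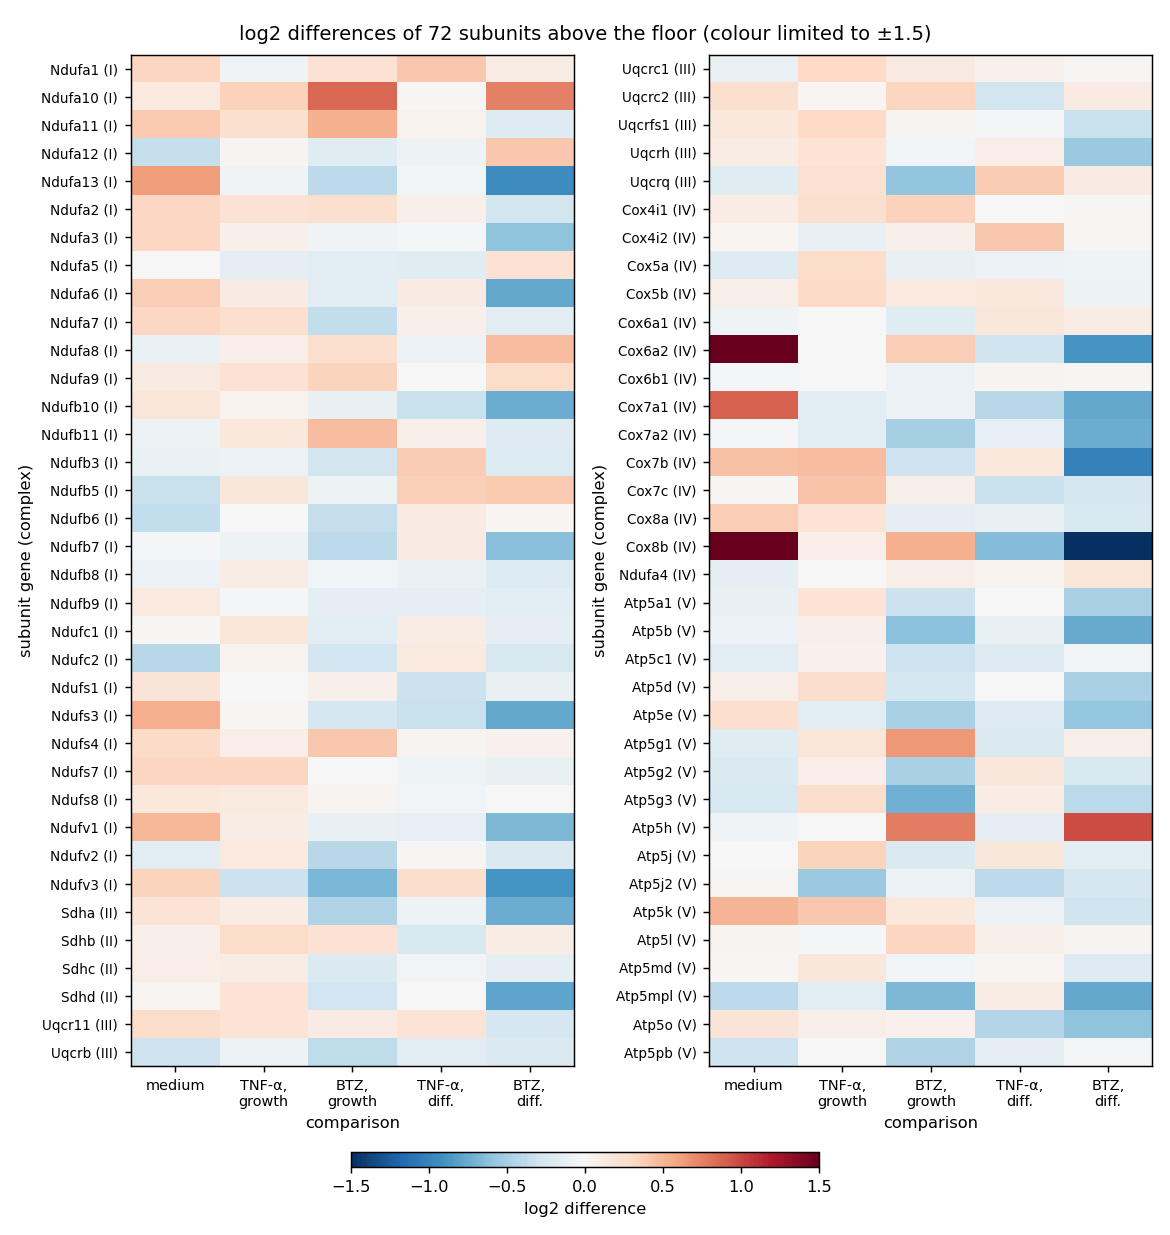
Log2 difference of every subunit above the floor (rows, with its complex) in the 5 comparisons (columns: differentiation against growth medium without treatment, then TNF-α and BTZ in each medium); red is higher, blue lower, with colour limited to 1.5 in each direction. The dark cells of the first column are Cox6a2, Cox7a1 and Cox8b, and the last column holds the 20 members lower by at least 0.5 with BTZ in differentiation medium beside Ndufa10 and Atp5h, which are higher.

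The additive model called 2 members higher with BTZ (7.31% of all genes) and 1 lower (6.85% of all genes). Atp5b fell by 0.69 (SE 0.11, limma adjusted p = 0.0206). It read 12.48, 12.56 and 11.87 in growth medium and 12.39, 12.29 and 11.64 in differentiation medium, so that both BTZ arrays were below the other 4. Ndufa10, a complex I subunit related to nucleoside kinases, rose by 0.81 (SE 0.15, limma adjusted p = 0.0277). It read 10.02, 10.37 and 10.88 and then 10.16, 10.18 and 10.91, with both BTZ arrays above the other 4. Atp5h, subunit d of the peripheral stalk, rose by 0.87 (SE 0.18, limma adjusted p = 0.0314), from 8.51, 8.52 and 9.28 in growth medium and 8.46, 8.31 and 9.43 in differentiation medium. Just past the threshold were Atp5mpl (-0.72, adjusted p = 0.0525), Sdha (-0.59, adjusted p = 0.0588) and Cox7a2 (-0.62, adjusted p = 0.0621). At an unadjusted limma p of at most 0.05 there were 3 members higher and 14 lower. The share of all genes at that level was not counted, so these counts are not read as a trait of the members. Without the 2 TNF-α arrays no member was called (limma adjusted p = 0.0576, 0.0522 and 0.0555 for Atp5b, Ndufa10 and Atp5h), and without the mean-variance trend the adjusted p of Atp5b was 0.0507.

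The upstream window of Atp5b is shown because it was the subunit with the smallest adjusted p for BTZ. Capitals mark a CAGCTG match starting at -39, and the window held none of the other 3 motifs.
Atp5b (chr10:128083057-128083306, + strand): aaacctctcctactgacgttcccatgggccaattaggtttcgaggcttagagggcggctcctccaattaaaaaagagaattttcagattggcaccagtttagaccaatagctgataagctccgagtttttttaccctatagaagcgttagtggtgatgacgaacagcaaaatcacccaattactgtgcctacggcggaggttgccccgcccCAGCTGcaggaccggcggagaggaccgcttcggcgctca

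Of the 18 windows belonging to members lower by 0.5 with BTZ in differentiation medium, 3 held the E-box, 2 the NRF1 core, 5 the ETS site and 0 the MEF2 motif, counts too small to read against the shares of all windows given above.

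Some genes had probe sets that went apart. Atp5h had a dim probe set that was 1.22 and 1.43 higher with BTZ in the growth and differentiation media and a bright one that was 0.30 and 0.52 higher, and on the bright one alone its BTZ effect was 0.41 (limma adjusted p = 0.0899). Cox7b, a small subunit of complex IV, differed with BTZ by -0.91 and -1.43 on its bright probe set and by 0.29 and -0.59 on its dim one. With the probe set of highest mean signal for each gene, limma called 3 members lower with BTZ in place of 1: Atp5b, Atp5e and Cox7b, the last with a difference of -1.17 (adjusted p = 0.0196). In either direction 4 of 73 members were called there, and 2028 of 13760 genes. Ndufa11 read 5.60 untreated and 6.60 with BTZ in growth medium on its dim probe set, and 8.50 and 8.57 on its bright one. Cox5b differed in sign, at -0.48 (bright) and 0.66 (dim) between the media and at -0.64 and 0.94 with BTZ in growth medium, so its mean averages opposite signs.

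The 3 genes for the c subunit of the ATP synthase rotor encode the same mature protein from different precursors, and their differences had both signs. Atp5g1 read 6.21, 6.38 and 6.86 in growth medium and 6.02, 5.81 and 6.11 in differentiation medium, the growth BTZ array being the highest. Atp5g3 read 9.03, 9.29 and 8.31 and then 8.78, 8.90 and 8.38, with both BTZ arrays the lowest of their medium. Atp5g2 read 11.00, 11.11 and 10.51 and then 10.78, 10.95 and 10.55, with the BTZ arrays again lowest. With BTZ in growth medium the differences were therefore 0.65 for Atp5g1, -0.49 for Atp5g2 and -0.72 for Atp5g3. Cox7a2l, which was 0.91 higher there, was 0.30 higher in differentiation medium, from 7.10, 7.04 and 8.01 in growth medium to 7.21, 7.24 and 7.51.

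The BTZ differences of the 2 media share no array and could be set against each other. Across the 73 members Pearson's r was 0.35, and across the 70 without the muscle isoforms it was 0.61, against 0.66 across all genes; genes are not independent replicates, and no test was made. Below 0 in both media were 38 members (52.1%, against 34.3% of all genes) and above 0 in both 15 (20.5%, against 36.2%). Atp5b, Atp5mpl and Ndufv3 were at least 0.5 lower in both (3 of 73, 4.11%; 9.89% of all genes), and Ndufa10 and Atp5h at least 0.5 higher in both (2 of 73, 2.74%; 10.9% of all genes). Cox8b was the member farthest from such a pairing, at 0.53 in growth and -2.52 in differentiation medium, and Cox6a2 was next, at 0.37 and -0.88. For TNF-α the r was 0.13 across members and 0.48 across all genes.

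**Figure D4:**
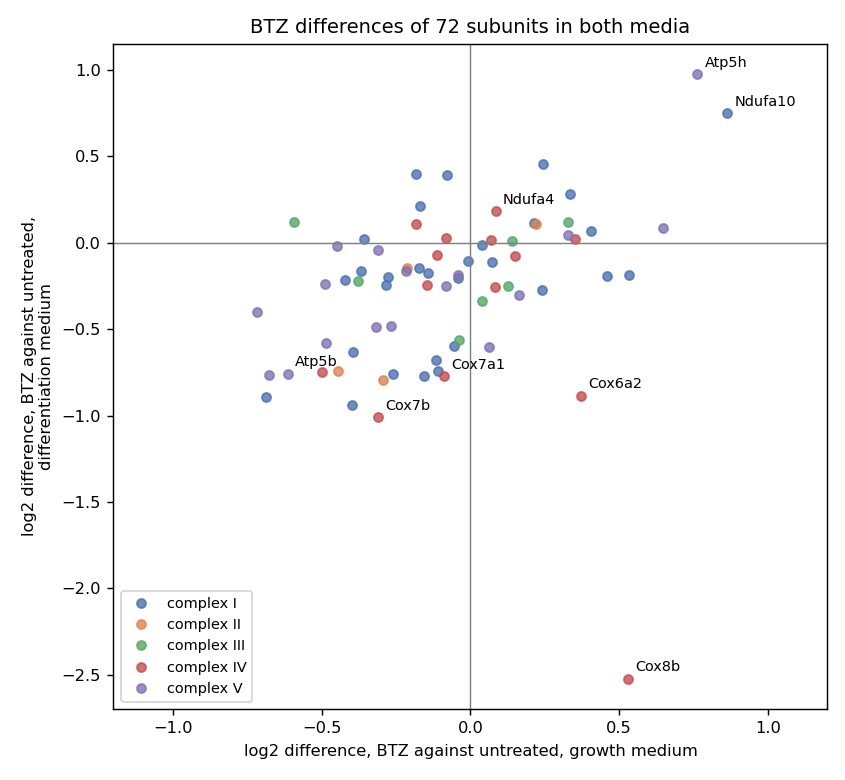
BTZ against untreated, log2 difference in growth medium (horizontal) and in differentiation medium (vertical), 1 point per subunit above the floor, coloured by complex. Ndufa10 and Atp5h lie at the upper right (0.86 and 0.75; 0.76 and 0.98), Atp5b at the lower left, and Cox8b (0.53 and -2.52) and Cox6a2 (0.37 and -0.88) at the lower right.

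As a group these genes varied little. The median range over the 6 arrays was 0.56 log2 units for members and 0.79 for all genes above the floor, and the median residual SD of the additive model was 0.14 and 0.18. The narrowest range, 0.090, was that of Cox6b1.

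The 10 mitochondrially encoded subunits with a single-symbol probe set, named here as in RefSeq, were also measured. Their median was -0.062 between the untreated media. With TNF-α all 10 were below 0 in both media (medians -0.16 and -0.13), as they were with BTZ (medians -0.13 and -0.34). Of all genes, 46.1% and 49.0% were below 0 with TNF-α in growth and differentiation medium, and 48.4% and 49.7% with BTZ. The TNF-α and BTZ differences of a medium share its untreated array, so they are not separate observations, and the 10 genes are not independent replicates. The array median was 5.07 untreated, 5.01 with TNF-α and 5.11 with BTZ in growth medium. In differentiation medium it was 5.07, 5.02 and 5.09. No other scaling is given for this list. Those at least 0.5 lower were ND6 with BTZ in growth medium (-0.54) and ND3 (-1.06) and COX3 (-0.60) with BTZ in differentiation medium. ND6 and ND3 encode complex I subunits and COX3 a complex IV subunit.

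Of the 43 assembly factors above the floor, which build the complexes without staying in them, 10 were at least 0.5 higher and 4 lower with BTZ in growth medium, and 7 and 5 in differentiation medium (medians 0.17 and 0.11). These are shares of 23.3% and 9.3% in growth medium, where 18.0% and 16.4% of all genes were higher and lower, and of 16.3% and 11.6% in differentiation medium, where 19.2% and 20.5% were. The complex III factor Uqcc1 was 1.12 higher and Surf1 0.87 higher in growth medium, and Cox20 was lower (-0.92). In differentiation medium Ndufaf6 was 1.17 higher, the heme synthesis enzyme Cox10 1.03 higher and the iron-sulfur carrier Nubpl lower (-0.90). Between the untreated media 5 of these factors were higher and 2 lower, with Uqcc1 0.83 higher (14.1% and 12.5% of all genes). TNF-α left 4 higher (9.3%; 7.77% of all genes) and 0 lower in growth medium and 0 past 0.5 in differentiation medium.

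Pathways that feed the chain were counted in the same way, and each count with BTZ in differentiation medium stands beside 20.5% of all genes lower and 19.2% higher. Of 22 citrate cycle and pyruvate dehydrogenase genes, 11 (50.0%) were at least 0.5 lower and 4 (18.2%) higher with BTZ in differentiation medium (median -0.42). Idh2, the mitochondrial NADP-linked isocitrate dehydrogenase, differed by -2.56 there and by -2.53 in growth medium. Pdk2, a kinase that turns pyruvate dehydrogenase off, was 1.65 higher in differentiation than in growth medium and differed by -2.11 with BTZ, where Pdhx, a structural component of the same enzyme, was 1.44 higher. Of 15 fatty acid oxidation genes 8 (53.3%) were lower and 3 (20.0%) higher (median -0.62). The differences were -2.37 for the last-step thiolase Acaa2, -1.38 for the entry enzyme Cpt1a and 1.42 for Eci2. Of 14 genes for electron carriers and ubiquinone synthesis 6 (42.9%) were lower and 3 (21.4%) higher (median -0.24). Coq8a was 1.78 higher in differentiation medium and differed by -1.35 with BTZ there, and Cycs, cytochrome c, differed by -0.97 between differentiation and growth medium.

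A list of mitochondrial carriers and channels and of creatine kinases had 9 genes. Of these, 3 (33.3%) were at least 0.5 lower and 1 (11.1%) higher with BTZ in differentiation medium (median -0.41). The creatine kinase Ckb was 1.83 higher in differentiation than in growth medium and differed by -2.60 with BTZ there. Ckm, which is also on the myotube list, differed by -1.12 and the ADP/ATP carrier Slc25a5 by -0.97. The 16 regulators of mitochondrial biogenesis had a median of 0.063 with 5 higher (31.2%) and 2 lower (12.5%), the former including Tfb2m (1.35) and the helicase Twnk (0.95), with Ppard at 1.34. All 14 mitochondrial chaperone, protease and import genes were above 0 with BTZ in differentiation medium (median 0.63), against 50.3% of all genes. At least 0.5 higher were 8 (57.1%), led by the chaperonins Hspd1 (2.03) and Hspe1 (1.58) and the protease Lonp1 (1.39). In growth medium 4 of these 14 (28.6%) were higher with BTZ, against 18.0% of all genes, and 4 with TNF-α, against 7.77% (medians 0.38 and 0.35).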

How the data were processed

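Members and gene lists were chosen with earlier results of these data known. Total RNA from 6 C2C12 cultures was extracted with TRIzol and biotin-labelled with Affymetrix whole-transcript kits, per the labels' protocols. The deposited values, 1 per probe set and array, were taken as log2 signals because they run from 1.66 to 14.06; how the authors corrected, summarised and normalised them is not given in the sources used here. No depth exists for arrays, and 1 array per group limits precision.

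Of 41345 probe sets, 23521 named 1 symbol in the platform annotation, 1814 several and 16010 none. The 10 several-symbol probe sets that match the rule were left out. All 79 members matched RefSeq by Entrez number, and 64 had an upstream window in the RefSeq table (GRCm38.p6). Probe sets were averaged per gene, and genes under the floor on every array were left out. The 0.5 threshold was chosen for abundant genes. R 4.3.3 with limma 3.58.1 gave the additive model (lmFit, then eBayes with its trend option). Its p-values were adjusted by Benjamini-Hochberg over 13652 genes, with 0.05 as threshold. The code was tested on simulated data with an additive medium effect and the same spread for every gene. That test does not cover treatment effects that differ between media. Any such effect enlarges the residual of the model. The labels do not say whether cultures were independent.

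Named with values were Ndufa4, the isoform pairs, other tissue isoforms, the 4 highest and 4 lowest members of each comparison, members passing the fit and the 3 largest differences of other lists; further members, as subjects of the report, were named by role. Alternatives were arrays shifted to the same median, quantile normalization, the probe set with the highest mean, no floor, a 2-fold threshold, eBayes without trend, and fits without the 2 BTZ or the 2 TNF-α arrays.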

Additional observations from a re-analysis of the deposited data

Results flagged for a closer look

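With BTZ, Cox8b differed by 0.53 in growth medium and by -2.52 in differentiation medium, a difference between the media of -3.05. It stood out because its single culture of each medium moved in the opposite direction. The difference was not tested, since it rests on 4 arrays with 1 per group, and 3 of the 4 values (4.12, 4.65 and 4.32) are below the floor of 5.06. Myotube markers were lower on the same array, with a mean log2 signal of 7.63 against 9.99, and their part in the value was not tested.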

How the results depend on the processing

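Counts of members past 0.5 were most sensitive to the threshold. At 2-fold they were 2 higher between the untreated media, 0 lower with TNF-α in growth medium, 0 higher and 0 lower with BTZ in growth medium, 0 lower with TNF-α in differentiation medium, and 0 higher and 2 lower with BTZ in differentiation medium. With equal array medians, TNF-α in growth medium left 1 higher and 0 lower, and BTZ in growth medium 8 lower; the latter count was 10 after quantile normalization and 9 with the highest probe set. With no floor, TNF-α in differentiation medium left 2 lower. Shares of all genes are not given for these counts, so they are not read as a trait of the members. The limma medium effect called 6 members without the 2 BTZ arrays (3209 of 13652 genes) and 0 without the 2 TNF-α arrays (118 genes). The BTZ effect called 5 after quantile normalization (1894 of 13634 genes) and 0 without the 2 TNF-α arrays (1312 of 13652 genes). The main fits called 550 genes for medium and 1933 for BTZ. Calls over all genes thus varied with the setting too, and the cause was not tested. Single members were checked only where they differed by at least 0.5, which held for 41 differences. Of their 123 values under 3 alternatives (2 scalings, highest probe set), 118 stayed within 0.185, the median residual SD of the additive model, and 0 changed sign. The other 5 moved, all with the highest probe set: Atp5h to 0.30 and 0.52, Ndufa11 to 0.063, Atp5e to -0.86 and Cox7b to -1.43. Only 9 members had more than 1 probe set, and these 5 were all of their checked differences. With 1 probe set that alternative returns the same value. Equal array medians shift all genes of an array alike, and the medians lay between 5.01 and 5.11. Most of the 118 were therefore fixed in advance and do not measure robustness. Some smaller differences changed sign on the brightest probe set. Examples were Cox5b with BTZ in growth medium (0.15 to -0.64) and Cox7b between the untreated media (0.44 to -0.065). The median of members kept its sign under the scalings, probe sets and floors tried except for TNF-α in differentiation medium. Signals near the floor limit Cox8b, Cox7a1 and Cox4i2. No paired analysis was possible because each group has 1 array and the groups share only replicate number 1.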
